A study of Caenorhabditis elegans with 45 samples.

Results

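Trehalose and glycogen are the storage carbohydrates of *C. elegans*, and the transcripts described here are those of the enzymes that make and break them. The group was defined by the names and roles of the genes, and no measured value entered its definition, although results of these data were known when it was drawn up. It holds 10 of the 25985 genes measured: *tps-1*, *tps-2* and *gob-1* of trehalose synthesis, the trehalase genes *tre-1* to *tre-5*, and *gsy-1* and *pygl-1* of glycogen metabolism. RNA-sequencing was performed on whole adult worms of a pair of sterile strains at 9 ages, to follow metabolism during aging without progeny in the samples. The *fem-3(q20)ts* animals (FEM, hereafter) carry a gain-of-function allele that masculinizes the germline, so that a normal somatic gonad holds excess sperm and makes no oocytes. The *gon-2(q388)ts; gem-1(bc364)* animals (GEM, hereafter) carry a mutated cation channel needed for division of the gonad precursors, together with an allele of *gem-1*, a modifier of *gon-2*. At the restrictive temperature the failure of gonad formation is not complete, so that some GEM worms carry remnants of a gonad in which germ cells of both kinds, and at times embryos, can be found. Both strains were grown from arrested L1 larvae at the restrictive temperature on HT115 bacteria with the empty vector L4440, and visibly fertile GEM animals were removed by hand. Samples held at least 1000 worms.

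The libraries number 45, of which 23 are from FEM and 22 from GEM animals. Ages count hours from the time arrested larvae were given food. Worms of day 1 as adults were collected at 41 and 49 h. Day 2 corresponds to 65 and 73 h, and day 3 to 89 and 97 h. The last 3 ages, 117, 137 and 257 h, correspond to days 4, 5 and 10. The earliest, 41 h, falls at the end of the molt into the adult. Of the 18 groups of strain and age, 9 have 3 libraries and 9 have 2. Pairs of libraries represent FEM worms of 65 h and both strains from 117 h on, as well as GEM worms of 49 and 97 h. The labels link no library of one group to a library of another and name no batch. P-values rest on the spread between replicate libraries, pooled for each gene over the 18 groups and moderated over genes.

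Trehalose synthase joins UDP-glucose and glucose phosphate to trehalose phosphate, and a phosphatase then releases trehalose, which serves worms as a circulating sugar and protects membranes and proteins under desiccation and other stress. Trehalases split trehalose back to glucose. Glycogen synthase draws on the same UDP-glucose to extend the branched glucose polymer, glycogen phosphorylase releases glucose phosphate from it, and in worms glycogen lies mostly in intestine, muscle, epidermis and germline.

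Levels are given as log2(normalized count + 1). The depth estimated from the smallest steps in the values was 12800000 to 43300000 reads per library (median, 21400000 reads), and 16670 to 20163 genes were detected. A single read was worth 0.411 to 1.91 normalized counts, so that the lowest member level, that of *tre-5* in GEM at 41 h with a mean of 26.8 normalized counts, was well above it. Replicate libraries correlated with Pearson's r of 0.978 to 0.992 over all genes (36 pairs). Whole worms hold several tissues, and their marker lists were measured in the same libraries. The mean level of 12 oocyte genes was 8.59 to 10.99 in FEM and 3.74 to 14.30 in GEM libraries, and all 12 were above 0 in every library of both strains, although FEM animals are described as making no oocytes. That of 6 sperm genes was 7.58 to 10.53 in FEM and 1.53 to 5.57 in GEM libraries, where 3 of the 6 were above 0 in every library. The list of 8 embryonic genes lay at 0.59 to 2.53 in FEM and 0.00 to 4.21 in GEM libraries. In bulk samples of this kind, fewer cells of a type and less RNA per cell cannot be told apart.

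All 10 members passed the filter on low values. Per kilobase of exon, *pygl-1* had the highest level, with a median of 2842 normalized counts per kb in FEM and 5076 in GEM libraries. The trehalase gene *tre-2* had 1647 in FEM, where it came next, and 1132 in GEM. The medians of *gsy-1*, *gob-1*, *tre-1* and *tps-2* were 947, 936, 904 and 867 in FEM libraries. In GEM libraries they were 1617, 900, 1245 and 875 for the same genes. *tre-3* followed with 729 in FEM and 449 in GEM, *tps-1* with 313 in FEM and 291 in GEM, and *tre-4* with 131 in FEM and 148 in GEM. *tre-5* had the lowest level, with 37.1 in FEM and 65.4 in GEM. Over all ages, the ranges over libraries of neighbors in the order of each strain overlapped, except that *pygl-1* (2842 to 9248) was above all other members in every GEM library.

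Averaged over the 9 ages, the glycogen genes differed most between the strains: *pygl-1* was lower in FEM by a log2 difference (FEM minus GEM) of -1.11 ± 0.06 (SE) and *gsy-1* by one of -0.89 ± 0.06. Of the 10 members, 3 were higher in FEM (*tre-3*, *tre-2* and *tps-1*), 4 were lower (*pygl-1*, *gsy-1*, *tre-1* and *tre-4*) and *tps-2*, *gob-1* and *tre-5* did not pass the threshold (limma, Benjamini-Hochberg adjusted p of 0.23, 0.15 and 0.73). Most genes of the genome differed too: 69.6% of the 16925 genes tested passed, 31.1% as higher and 38.6% as lower in FEM, so the members' share of 7 of 10 was close to that of all genes. Their median difference was -0.06, against -0.08 over all genes tested. When each library was centered on its median, which moves the difference of every gene by the same amount, the median of all genes became -0.69. Then 0 members were higher and 9 lower in FEM, against 16.6% of all genes higher and 73.6% lower. Under quantile normalization the median of all genes moved to -0.43, with 2 members higher and 5 lower, against 22.2% and 61.9% of all genes. The lower levels of *pygl-1*, *gsy-1*, *tre-1* and *tre-4* were found under every scaling tried. The higher ones of *tre-2*, *tps-1* and *tre-3* were not, with *tre-3* at 0.02 in centered libraries (adjusted p = 0.78). At single ages, 48 of the 90 pairs of member and age passed the threshold, 18 higher and 30 lower in FEM, against 48.8% of all gene and age pairs (27.2% higher, 21.6% lower). From 41 to 257 h, the members called at the 9 ages numbered 7, 6, 3, 5, 6, 5, 6, 4 and 6 of 10, against 52.4, 57.7, 48.6, 38.1, 44.3, 35, 46.1, 55.1 and 61.7% of all genes. The members' share was thus above that of all genes at 6 ages and below it at 65, 137 and 257 h.

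The gene *tps-1* (WBGene00006602, chromosome X:17467121-17474534, minus strand, on WBcel235) encodes a trehalose phosphate synthase. On the scale of the deposited values its level was higher on day 5 than on day 1 in both strains. In FEM animals the mean level at 41, 49, 65, 137 and 257 h was 9.43, 9.73, 10.24, 10.78 and 11.03, and in GEM animals it was 9.56, 9.36, 10.19, 10.44 and 10.78. The libraries of day 5 read 10.85 and 10.72 in FEM, against 9.52, 9.45 and 9.32 at 41 h and 9.65, 9.65 and 9.90 at 49 h. In GEM they read 10.50 and 10.37 on day 5, against 9.68, 9.62 and 9.36 at 41 h and 9.54 and 9.18 at 49 h. Every day 5 library thus lay above every day 1 library of its strain. The increase from day 1, the mean of 41 and 49 h, to day 5 was 1.20 ± 0.15 in FEM (adjusted p = 1.1e-07) and 0.98 ± 0.16 in GEM (adjusted p = 1.5e-06), although the GEM value was -0.56 under quantile normalization and 0.27 with centered libraries. The difference of 0.22 ± 0.22 between these increases did not pass the threshold (adjusted p = 0.43). It did under quantile normalization (1.64, adjusted p = 3.0e-05) and with centered libraries (0.80, adjusted p = 0.0081). *tps-1* was the member with the smallest strain difference that passed, 0.16 ± 0.06 higher in FEM over the 9 ages (adjusted p = 0.014), and -0.45 once libraries were centered on their medians. The strains' libraries were separate at only 2 of the 9 ages, 49 and 137 h.

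The paralog *tps-2* (WBGene00006603, chromosome II:14600902-14610554, plus strand) took another course. Its mean level at 41, 65, 137 and 257 h was 11.17, 11.95, 11.40 and 10.79 in FEM and 11.57, 12.19, 11.50 and 11.04 in GEM animals, so that it was highest on days 2 and 3 and lowest on day 10. The FEM libraries read 10.85 and 10.73 on day 10, against 11.43 and 11.38 on day 5, a log2 change of -0.61 ± 0.19 (adjusted p = 0.018). This call was lost with any of the 4 libraries left out (adjusted p up to 0.11). The FEM call was also lost under quantile normalization (-0.55, adjusted p = 0.17), with centered libraries (-0.53, adjusted p = 0.11) and in a fit to the groups compared (adjusted p = 0.064). The GEM change of -0.46 ± 0.19 did not pass (adjusted p = 0.13). From day 1 to day 5 the GEM change was -0.08, but -1.27 under quantile normalization and -0.79 with centered libraries, both past the threshold. The change in FEM minus that in GEM was 0.20 on the deposited scale, and passed at 1.31 and 0.78 under these scalings. Exons of *tps-2* share 24 bases with *arl-3* on the same strand, and reads there could belong to either gene.

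The make-up of the synthase transcripts shifted with age in both strains. Per kilobase, *tps-1* made up 20.9% ± 2.4 (SD, n = 3) of the summed *tps* counts in FEM animals at 41 h, 36.4% ± 0.98 (n = 2) at 137 h and 51.0% ± 0.53 (n = 2) at 257 h. In GEM animals it made up 18.1% ± 3.6 (n = 3), 29.8% ± 3.4 (n = 2) and 42.4% ± 3.1 (n = 2) at the same ages. The sum of both genes had group means of 761 to 1392 normalized counts per kb in FEM and 953 to 1494 in GEM.

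*gob-1* (WBGene00001649, chromosome X:15493602-15497504, plus strand) encodes the trehalose phosphate phosphatase, whose loss obstructs the gut of larvae. Its FEM level was steady up to day 5, with group means of 10.60 to 11.01, and read 9.95 and 10.17 on day 10, against 10.83 and 10.76 on day 5. This decrease was -0.74 ± 0.15 (adjusted p = 0.00037). In GEM animals the libraries read 10.55 and 10.08 on day 10, against 10.73 and 10.59 on day 5, and the change of -0.35 ± 0.15 was not significant (adjusted p = 0.17), but was -0.58 (adjusted p = 0.036) without the library at 10.55. From day 1 to day 5 *gob-1* rose by 0.38 ± 0.12 in GEM (adjusted p = 0.007), a call that was lost without the day 5 library at 10.73 (0.31, adjusted p = 0.099), and the change was -1.07 under quantile normalization and -0.33 with centered libraries.

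**Figure D1:**
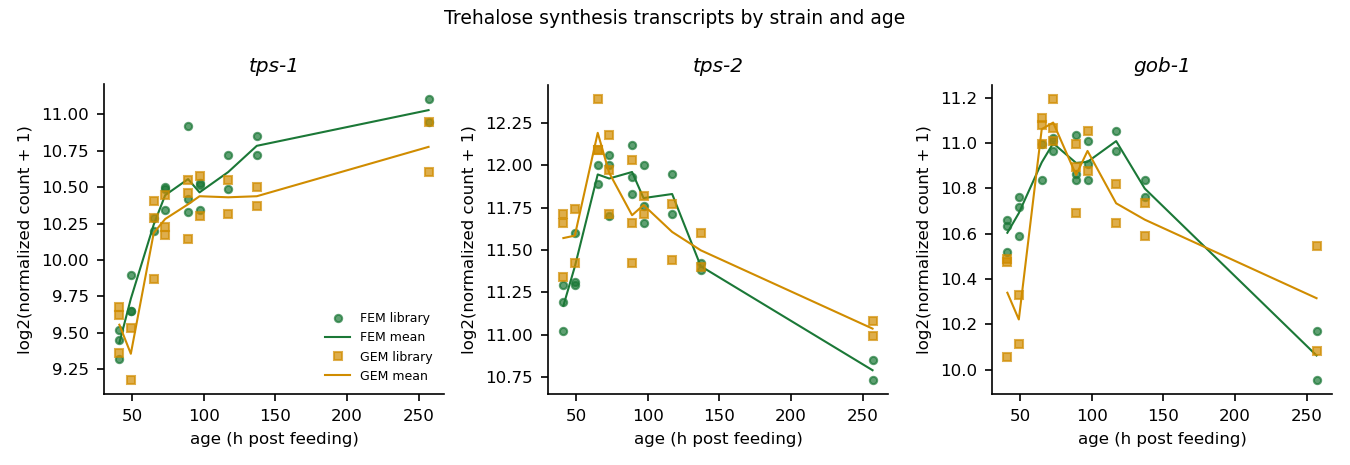
Levels of the trehalose synthesis genes, as log2(normalized count + 1), against age in hours post feeding, with points for libraries and lines for group means, FEM in green and GEM in orange. *tps-1* is highest at 257 h, with means of 11.03 in FEM and 10.78 in GEM, whereas *tps-2* has its lowest means there, 10.79 in FEM and 11.04 in GEM.

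The trehalases differed among themselves in the direction of the strain difference and in their course with age. *tre-1* (WBGene00006607, chromosome I:6554729-6558665, plus strand) was lower in FEM over the 9 ages, by a log2 difference of -0.47 ± 0.04 (adjusted p = 8.8e-12). Its libraries read 10.21 and 10.08 in FEM at 257 h, against 11.12 and 11.08 in GEM. At 65 h they read 10.99 and 11.04 in FEM, against 11.63, 11.57 and 11.54 in GEM. All FEM libraries lay below all GEM libraries at 8 of the 9 ages, the exception being 49 h. For all members together the strains did not overlap in 62 of 90 pairs of gene and age, with FEM above in 25 and below in 37, against 65.4% of all gene and age pairs (34.5% above, 30.9% below).

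*tre-2* (WBGene00006608, chromosome IV:6876731-6883442, minus strand) had the highest level per kb among the trehalases in FEM. It was 0.36 ± 0.06 higher in FEM over the 9 ages (adjusted p = 7.3e-07), but -0.25 with centered libraries. Its FEM libraries read 11.93 and 12.10 at 117 h, against 11.37 and 11.34 in GEM. At 257 h the order was turned round, with 10.55 and 10.33 in FEM, against 10.88 and 10.73 in GEM. *tre-2* was thus above GEM in all FEM libraries at the 7 ages between 49 and 137 h, below at 257 h, and overlapped at 41 h.

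*tre-3* (WBGene00006609, chromosome V:11709769-11715903, minus strand) showed the largest difference in favor of FEM, 0.63 ± 0.05 over the 9 ages (adjusted p = 3.1e-13), although this was 0.02 with centered libraries (adjusted p = 0.78). The libraries at 137 h read 10.49 and 10.78 in FEM, against 9.42 and 9.68 in GEM. At 257 h they read 9.58 and 9.93 in FEM, against 8.43 and 8.81 in GEM. FEM libraries lay above GEM libraries at 8 of the 9 ages. The exception was 49 h, with 9.72, 9.67 and 9.72 in FEM, against 10.03 and 10.08 in GEM. From day 1 to day 5 *tre-3* rose by 0.77 ± 0.13 in FEM (adjusted p = 1.7e-05), while the GEM change was -0.27 ± 0.14 (adjusted p = 0.078). The difference between these changes, 1.04 ± 0.19, passed the threshold (adjusted p = 1.9e-05), and it did so under all other scalings, filters and choices of day 1.

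*tre-4* (WBGene00006610, chromosome X:13472155-13475926, plus strand) was weakly expressed and, on the scale of the deposited values, followed a similar curve in both strains. Its mean level at 41, 89 and 257 h was 7.63, 8.49 and 6.63 in FEM and 8.01, 8.36 and 7.13 in GEM animals. Over the 9 ages *tre-4* was lower in FEM, by a log2 difference of -0.19 ± 0.06 (adjusted p = 0.0037). Its exons share 51 bases with *efn-3* on the opposite strand, and as reads were mapped without strand, those bases cannot be assigned.

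*tre-5* (WBGene00006611, chromosome II:52997-55304, minus strand) had the lowest level and the widest span of the members. At 41 h its libraries read 8.30, 7.93 and 7.80 in FEM, against 4.49, 4.91 and 4.95 in GEM, which corresponds to means of 260 normalized counts in FEM and 26.8 in GEM. This was a difference of 3.23 ± 0.29 (adjusted p = 2.1e-11). Only 8 h later the order was reversed. At 49 h the libraries read 5.41, 5.35 and 5.48 in FEM, against 6.23 and 6.82 in GEM, a difference of -1.11 ± 0.33 (adjusted p = 0.0043) that was not significant without the GEM library at 6.82 (-0.82, adjusted p = 0.098). The FEM libraries of these ages do not overlap, nor do those of GEM, and they moved in opposite directions.

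From 65 to 137 h the group means of *tre-5* increased in both strains. The group means at 65, 89, 117, 137 and 257 h were 5.40, 6.16, 6.57, 7.33 and 9.28 in FEM and 5.92, 7.28, 7.70, 7.71 and 7.42 in GEM animals. FEM libraries remained below GEM libraries or overlapped with them up to 137 h, where they read 7.39 and 7.27 in FEM, against 7.99 and 7.43 in GEM. At 257 h they read 9.15 and 9.41 in FEM, against 7.60 and 7.24 in GEM, so that FEM animals again had more, by 1.85 ± 0.36 (adjusted p = 3.9e-05). The day 10 mean of 622 normalized counts in FEM, against 172 in GEM, was the highest of the gene. The differences at single ages thus had opposite signs, and their mean over the 9 ages was -0.04 ± 0.11, though -0.68 under quantile normalization and -0.66 with centered libraries, both past the threshold. In the epidermis, where molting takes place, 6 marker genes had mean levels of 13.14 ± 0.15 (SD) in FEM and 13.64 ± 0.36 in GEM at 41 h (n = 3 each). At 49 h they were 10.36 ± 0.79 (n = 3) in FEM and 12.87 ± 1.47 (n = 2) in GEM, and at 257 h 6.30 ± 2.85 in FEM and 4.40 ± 0.43 in GEM (n = 2 each). The part of this list in the *tre-5* result was not tested.

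**Figure D2:**
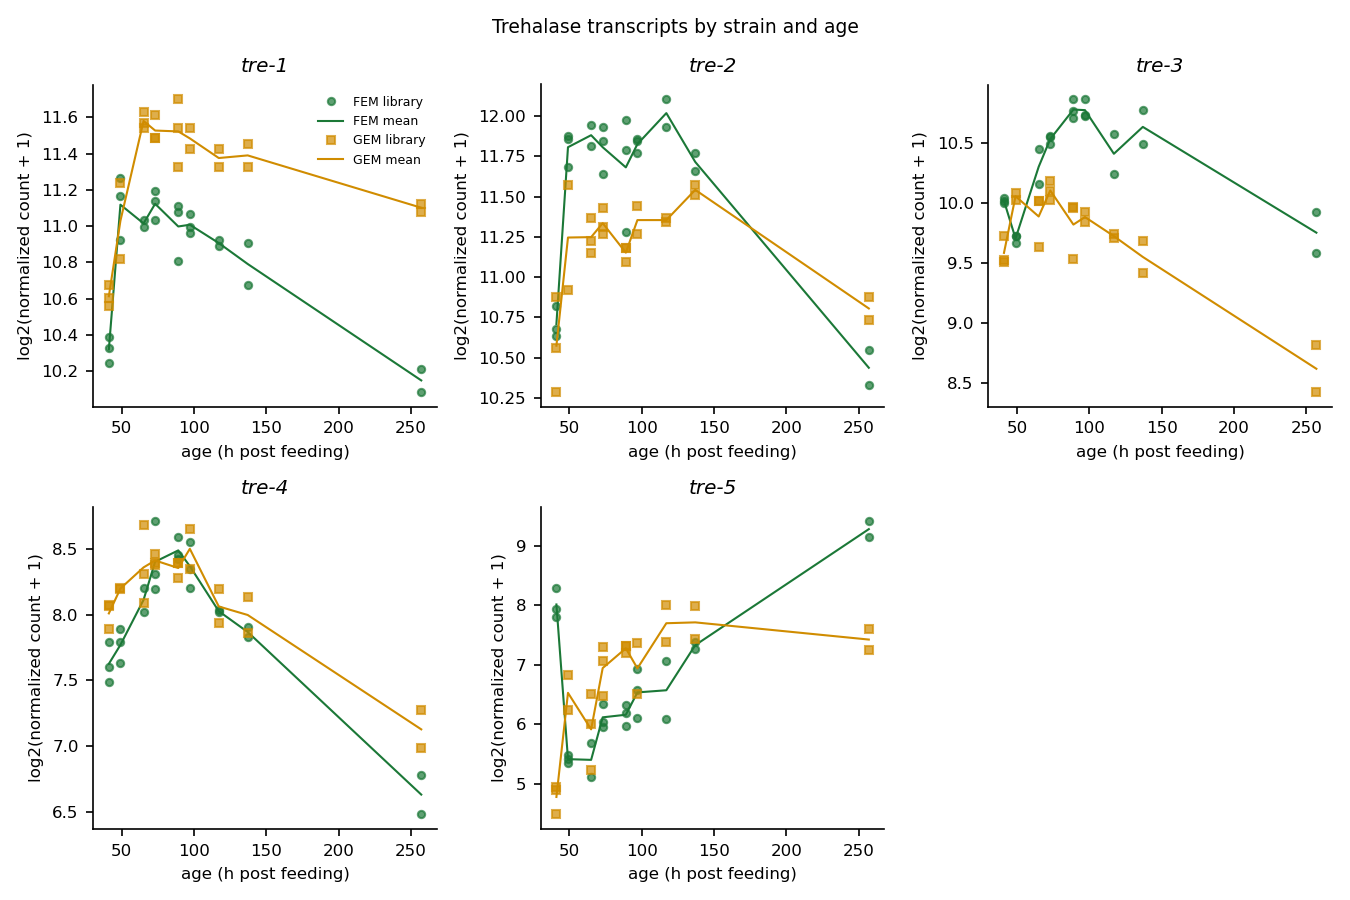
Levels of the 5 trehalase genes, as log2(normalized count + 1), against age in hours post feeding, with points for libraries and lines for group means, FEM in green and GEM in orange. The *tre-5* means cross between 41 h (8.01 in FEM, 4.78 in GEM) and 49 h (5.41 in FEM, 6.53 in GEM) and again before 257 h (9.28 in FEM, 7.42 in GEM).

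Per kilobase, *tre-1* and *tre-2* together supplied most trehalase transcripts, but the shares depended on strain and age. *tre-1* made up 23.6 to 31.2% (group means) in FEM and 33.5 to 45.6% in GEM, with no overlap between the group means of the strains. *tre-2* made up 33.3 to 52.6% in FEM and 34.2 to 43.2% in GEM. *tre-3* made up 13.1 to 25.0% in FEM and 9.26 to 19.9% in GEM. *tre-5* was a minor transcript, with 0.61% ± 0.072 (SD, n = 3) in FEM and 1.61% ± 0.75 (n = 2) in GEM at 49 h. At 257 h it reached 15.0% ± 1.8 in FEM, against 3.70% ± 0.54 in GEM (n = 2 each). The sum over the 5 genes had group means of 1946 to 3725 normalized counts per kb in FEM and 1963 to 3331 in GEM. It was low at both ends of the series, at 41 h (2108 ± 65 in FEM, 1963 ± 189 in GEM) and at 257 h (1946 ± 18 in FEM, 2182 ± 66 in GEM).

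**Figure D3:**
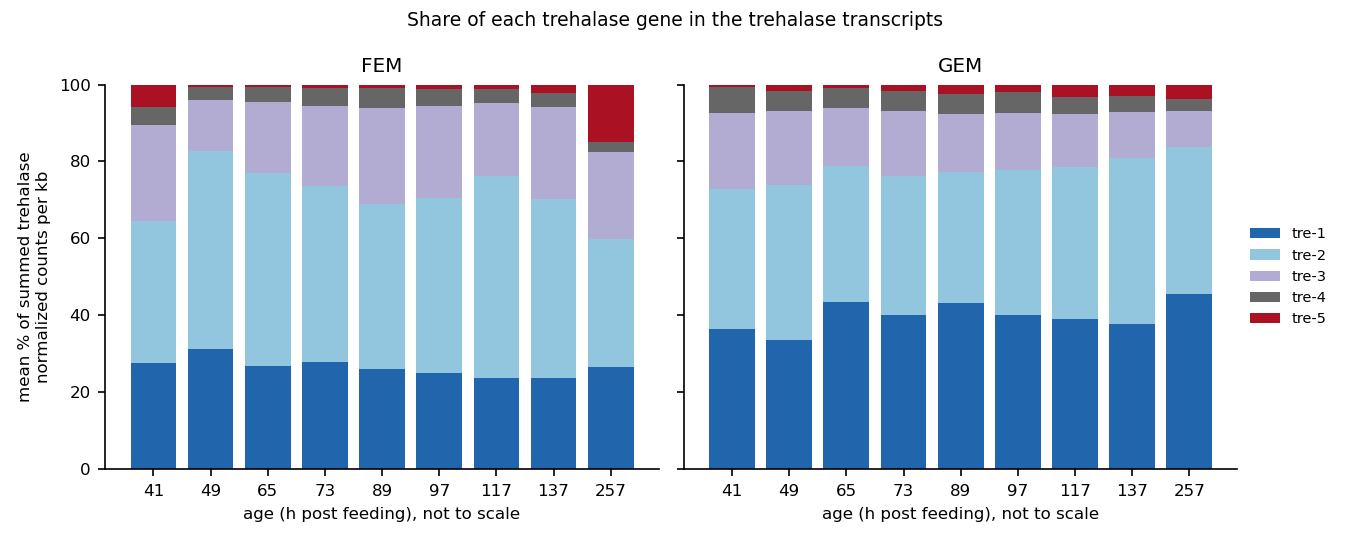
Share of each trehalase gene in the summed trehalase transcripts, in percent of normalized counts per kb of exon, as means of 2 or 3 libraries at each age, FEM on the left and GEM on the right. The *tre-5* segment widens in FEM at 41 h (5.79%) and 257 h (15.0%), whereas in GEM it does not exceed 3.70%.

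The glycogen genes parted with age. *gsy-1* (WBGene00001793, chromosome II:12866446-12878121, minus strand) encodes glycogen synthase, and *pygl-1* (WBGene00020696, named T22F3.3 in the files, chromosome V:3579023-3585042, plus strand) encodes glycogen phosphorylase. In FEM animals the mean *gsy-1* level at the 9 ages was 11.08, 11.68, 11.53, 11.54, 11.23, 11.12, 10.96, 10.42 and 9.98. In GEM animals it was 11.89, 11.23, 11.90, 11.88, 12.12, 11.92, 11.99, 12.16 and 12.42. For *pygl-1* these values were 13.23, 13.57, 13.47, 13.32, 12.93, 12.88, 12.77, 12.30 and 11.32 in FEM and 13.63, 13.30, 13.80, 13.84, 14.24, 13.99, 14.13, 14.36 and 14.51 in GEM. In FEM both genes had their highest mean at 49 h and their lowest at 257 h, and in GEM the reverse, although the GEM means were lower at 97 h than at 89 h.

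On day 10 the *gsy-1* libraries read 9.91 and 10.04 in FEM, against 12.34 and 12.51 in GEM, a difference of -2.45 ± 0.20 (adjusted p = 1.3e-11). The *pygl-1* libraries read 11.21 and 11.43 in FEM, against 14.43 and 14.59 in GEM, or 2559 normalized counts in FEM and 23306 in GEM on average. This difference of -3.19 ± 0.20 (adjusted p = 1.3e-13) was the largest between the strains of any member and age except for *tre-5* at 41 h. FEM libraries lay below GEM libraries at 8 of the 9 ages for both genes. At the remaining age, 49 h, *gsy-1* read 11.76, 11.79 and 11.50 in FEM, against 10.98 and 11.48 in GEM. That difference of 0.45 ± 0.18 (adjusted p = 0.034) was 0.20 (adjusted p = 0.48) without the GEM library at 10.98, also lost its call without the FEM library at 11.76 or 11.79, and was -0.57 with centered libraries and -0.12 under quantile normalization. *pygl-1* overlapped at 49 h, with 13.59, 13.68 and 13.45 in FEM and 13.09 and 13.52 in GEM.

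The change from day 1 to day 5 was tested in each strain and between them. In FEM, *gsy-1* fell, with a log2 change of -0.95 ± 0.16 (adjusted p = 1.3e-05), and so did *pygl-1*, with one of -1.1 ± 0.16 (adjusted p = 1.4e-06). In GEM the change was 0.60 ± 0.17 for *gsy-1* (adjusted p = 0.0017) and 0.89 ± 0.17 for *pygl-1* (adjusted p = 1.6e-05). The increase of *gsy-1* was not significant without the day 5 library at 12.28 (0.49, adjusted p = 0.052), with 41 h alone as day 1 (0.27, adjusted p = 0.17) or in a fit to the groups compared (adjusted p = 0.083), and became -0.45 under quantile normalization and -0.11 with centered libraries, and that of *pygl-1* was 0.18 with centered libraries (adjusted p = 0.25). The change in FEM minus that in GEM was -1.56 ± 0.23 for *gsy-1* (adjusted p = 6.5e-07) and -2.0 ± 0.23 for *pygl-1* (adjusted p = 6.3e-09), and it passed the threshold under each scaling, filter and choice of day 1 tried. From day 5 to day 10 *pygl-1* fell further in FEM (log2 change -0.98 ± 0.20, adjusted p = 0.0004), with libraries at 11.21 and 11.43 on day 10, against 12.39 and 12.21 on day 5. The change of *gsy-1* in this interval, -0.45 ± 0.20, did not pass (adjusted p = 0.13). In GEM neither gene passed (*gsy-1* 0.26 ± 0.20, *pygl-1* 0.14 ± 0.20, adjusted p = 0.52 and 0.78).

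The germline markers of the strains also moved with age. In FEM animals the oocyte list had mean levels of 8.80 ± 0.20 (SD), 10.18 ± 0.13, 10.53 ± 0.19 and 10.29 ± 0.16 at 41, 65, 137 and 257 h, and in GEM animals of 4.65 ± 0.79, 10.18 ± 0.74, 13.90 ± 0.23 and 14.10 ± 0.14. The sperm list was at 7.79 ± 0.19 in FEM and 1.94 ± 0.53 in GEM at 41 h, and at 9.15 ± 0.62 in FEM and 5.55 ± 0.03 in GEM at 257 h. At 41 h the *gsy-1* libraries read 11.02, 11.12 and 11.08 in FEM, against 12.10, 12.15 and 11.41 in GEM (-0.81 ± 0.16, adjusted p = 7.4e-05). The *pygl-1* difference was -0.40 there, and its call was lost without any of 5 of the 6 libraries (adjusted p up to 0.14). At 49 h the oocyte list was at 9.72 ± 0.17 in FEM and 7.06 ± 0.54 in GEM. The *gsy-1* difference was then 0.45, with the limits given above. At 65 h the oocyte list had the same mean in both strains, and the difference of *gsy-1* was then -0.37 ± 0.18 (adjusted p = 0.094) and that of *pygl-1* -0.33 ± 0.18 (adjusted p = 0.14). Both passed under quantile normalization (-0.82 for *gsy-1* and -0.55 for *pygl-1*, adjusted p = 1.7e-06 and 0.00048), with centered libraries (-1.33 and -1.30, adjusted p = 1.9e-08 and 1.6e-08) and in a fit to the libraries of this age alone (adjusted p = 0.017 and 0.033). In the GEM group at 89 h a single library stood above the others in *pygl-1*, with 14.79 against 13.91 and 14.02, and in *gsy-1*, with 12.51 against 11.83 and 12.02. Of the tissues that store glycogen, the intestine list was at 10.40 ± 0.43 in FEM and 10.08 ± 0.13 in GEM at 257 h, and the body wall muscle list at 11.87 ± 0.80 in FEM and 12.57 ± 0.27 in GEM. The part of these lists in the glycogen result was not tested, and germline composition and strain cannot be told apart.

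**Figure D4:**
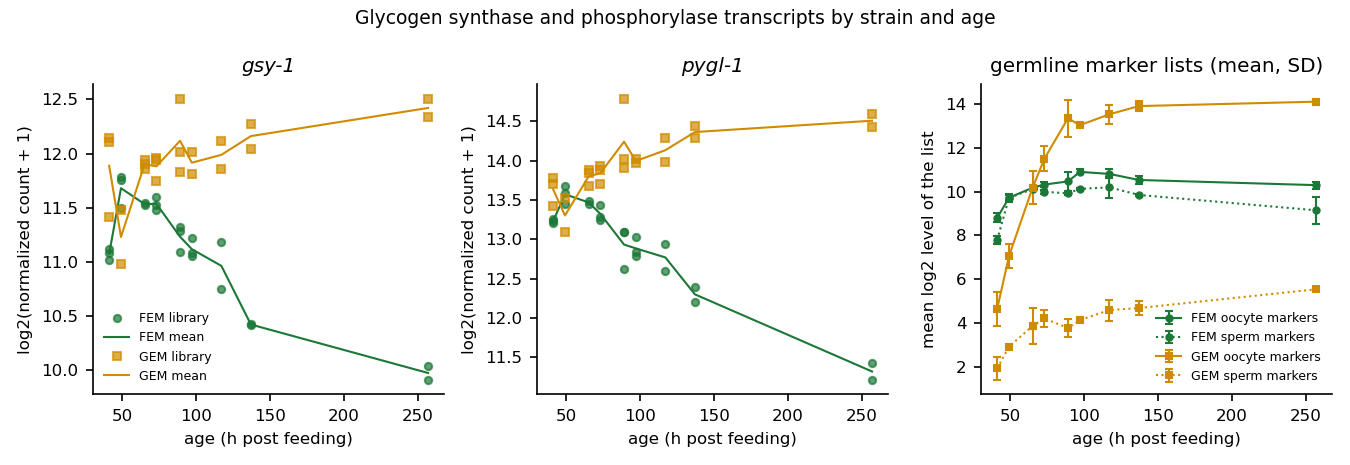
Levels of *gsy-1* and *pygl-1*, as log2(normalized count + 1), and mean levels of the oocyte and sperm marker lists (bars, SD over libraries), against age in hours post feeding, FEM in green and GEM in orange. At 257 h the *pygl-1* libraries stand at 11.21 and 11.43 in FEM and at 14.43 and 14.59 in GEM, and the oocyte lists at 10.29 in FEM and 14.10 in GEM.

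*gsy-1* and *pygl-1* kept close to each other over strains and ages. Their group means correlated with Pearson's r of 0.98 over the 18 groups, and *pygl-1* was the gene most like *gsy-1* among all genes tested, and *gsy-1* that most like *pygl-1*. The log2 level of *pygl-1* minus that of *gsy-1* lay between 1.75 and 2.20 (group means) in GEM and between 1.34 and 2.15 in FEM, where it was lowest at 257 h. The other members followed each other less closely, with r of 0.91 for *tps-2* and *tre-4*, 0.82 for *tps-2* and *gob-1*, and -0.09 for *tps-1* and *tps-2*. Groups that share a strain or neighboring ages are not independent, and these coefficients are given as a description.

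Within day 1, trehalase and glycogen genes changed in the 8 h from 41 to 49 h, and none of the 3 synthesis genes passed the threshold in either strain, except for *tps-1* in a fit to the FEM libraries of these ages alone (0.30, adjusted p = 0.033). Of the 10 members, 3 rose (*tre-2* 1.1, *tre-1* 0.80 and *gsy-1* 0.61) and 1 fell (*tre-5* -2.60) in FEM, against 35.8% of all genes called (23.2% rising, 12.6% falling). In GEM 4 rose (*tre-5* 1.75, *tre-2* 0.67, *tre-3* 0.47 and *tre-1* 0.42) and 1 fell (*gsy-1* -0.66), against 20% of all genes (11.9% rising, 8.07% falling). *tre-2* read 11.87, 11.86 and 11.69 at 49 h, against 10.82, 10.68 and 10.63 at 41 h in FEM. The FEM change of *tre-3* (-0.31) passed under quantile normalization (-0.61, adjusted p = 0.0073) and with centered libraries (-0.52, adjusted p = 0.011). In a fit to the FEM libraries of these ages alone *tre-3* (adjusted p = 0.0027) and *pygl-1* (0.34, adjusted p = 0.0058) passed too. That fit called 7 members and 8869 of all genes. The GEM libraries of this interval were less uniform. Without the 49 h library with *tre-5* at 6.23 only *tre-5* passed, with 0.21 for *tre-1* (adjusted p = 0.49), 0.35 for *tre-2* (adjusted p = 0.32), 0.50 for *tre-3* (adjusted p = 0.10) and -0.40 for *gsy-1* (adjusted p = 0.31). Without the 41 h library with *gsy-1* at 12.15 only *tre-5* and *tre-2* did. The call of *tre-3* was lost without any but 1 of the 5 libraries. In a fit to the GEM libraries of these ages alone, 0 members and 114 of all genes passed. The strains differed in the change of *tre-5* (-4.34 ± 0.44, adjusted p = 1.4e-08), *gsy-1* (1.26 ± 0.24, adjusted p = 0.00034) and *tre-3* (-0.78 ± 0.20, adjusted p = 0.0055), 3 of 10 members, against 18.4% of all genes (11% more positive and 7.42% more negative in FEM).

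From day 1 to day 5, 3 members rose and 2 fell in FEM, and 7 rose and 0 fell in GEM. The background was 43.7% of all genes in FEM (25.4% rising, 18.3% falling) and 73.3% in GEM, where 52.9% of all genes rose, 20.5% fell and the median of all genes was 0.84, above the members' median of 0.59. Under quantile normalization the median of all genes was -0.02, and 2 members rose and 8 fell in GEM, against 38.2% of all genes rising and 37.2% falling. With centered libraries it was 0.13, and 1 member rose and 4 fell, against 41.6% of all genes rising and 33.6% falling. In GEM, *tre-5* rose by 2.06 ± 0.30 (adjusted p = 2.9e-07), and by 1.28 under quantile normalization and 1.34 with centered libraries, whereas the increases of *tre-1* (0.57) and *tre-2* (0.63) became decreases under quantile normalization (-0.77 and -0.66) and were -0.14 and -0.08 with centered libraries. In FEM, *tre-2* rose by 0.46 ± 0.15 (adjusted p = 0.013), which was not significant without the day 5 library at 11.77 (0.40, adjusted p = 0.14) or at 11.66 (0.51, adjusted p = 0.051) and was -0.09 when 49 h alone stood for day 1. This *tre-2* rise also did not pass under quantile normalization (0.38, adjusted p = 0.078) or with centered libraries (0.33, adjusted p = 0.11). The strains differed in the change of 5 members, 1 more positive and 4 more negative in FEM, against 51.7% of all genes (11.2% more positive, 40.4% more negative). Under quantile normalization 7 members were more positive and 2 more negative in FEM, against 28.9% and 30% of all genes. With centered libraries 4 were more positive and 2 more negative, against 25% and 33.7%. On the scale of the deposited values the 5 members were *tre-3*, *gsy-1*, *pygl-1*, *tre-1* (-0.50 ± 0.16, adjusted p = 0.01) and *tre-5* (-1.44 ± 0.42, adjusted p = 0.0044). The *tre-1* difference was 0.70 under quantile normalization and 0.09 with centered libraries, and was lost without the FEM day 5 library at 10.68 (-0.38, adjusted p = 0.099) or the GEM day 5 library at 11.45 (-0.43, adjusted p = 0.065). That of *tre-5* was -1.16 (adjusted p = 0.055) without the GEM day 5 library at 7.99, -0.86 both under quantile normalization (adjusted p = 0.087) and with centered libraries (adjusted p = 0.097), and 0.73 with 49 h alone as day 1.

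From day 5 to day 10, 7 of the 10 members fell in FEM, against 10.3% of all genes, and 1 rose, against 6.71% (17% in either direction). Their median change was -0.69, whereas that of all genes was 0.01. The decreases were -1.28 for *tre-2*, -1.24 for *tre-4*, -0.98 for *pygl-1*, -0.88 for *tre-3*, -0.74 for *gob-1*, -0.64 for *tre-1* and -0.61 for *tps-2*. *tre-5* rose by 1.95 ± 0.36 (adjusted p = 0.00013), and *tps-1* (0.25 ± 0.19) and *gsy-1* did not pass. Under quantile normalization 7 members fell, with *gsy-1* (-0.39, adjusted p = 0.038) in place of *tps-2*, against 10.7% of all genes. With centered libraries 6 fell, without *tps-2*, against 8.96%. In a fit to the FEM libraries of these ages alone 5 fell, against 1086 of the 16925 genes. The calls of *tre-1* (adjusted p = 0.073) and *tps-2* (adjusted p = 0.064) were lost there. Over the same interval the intestine list had mean levels of 10.40 ± 0.43 (SD) on day 10, against 11.46 ± 0.07 on day 5 in FEM, and of 10.08 ± 0.13 on day 10, against 11.13 ± 0.16 on day 5 in GEM. The body wall muscle list was at 11.87 ± 0.80 on day 10, against 12.75 ± 0.09 on day 5 in FEM, and at 12.57 ± 0.27 on day 10, against 13.03 ± 0.10 on day 5 in GEM (n = 2 each). The part of these lists in the decrease of the members was not tested. In GEM 3 members fell (*tre-3* -0.93, *tre-4* -0.87 and *tre-2* -0.74) and 0 rose, against 8.14% of all genes (4.61% falling, 3.53% rising). The median change of the members in GEM was -0.32, against 0.12 over all genes. *tre-2* read 10.55 and 10.33 on day 10, against 11.77 and 11.66 on day 5 in FEM, and 10.88 and 10.73 on day 10, against 11.51 and 11.57 on day 5 in GEM. *tre-4* read 6.48 and 6.78 on day 10, against 7.83 and 7.91 on day 5 in FEM, and 7.27 and 6.98 on day 10, against 7.86 and 8.14 on day 5 in GEM. For both genes the ages were thus separate in both strains. The GEM calls of *tre-2* and *tre-4* were lost without the day 5 library with *tre-2* at 11.57 (adjusted p = 0.079 and 0.07) or the day 10 library with *tre-2* at 10.73 (adjusted p = 0.11 and 0.079). All 3 GEM calls were lost in a fit to those 4 libraries alone. Under quantile normalization *tre-2* alone passed in GEM, against 4.06% of all genes falling. *tre-3* was then at -0.61 (adjusted p = 0.10) and *tre-4* at -0.68 (adjusted p = 0.063).

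The change to day 10 differed between the strains for 2 members, against 3.76% of all genes (0.951% more positive, 2.81% more negative in FEM): *tre-5* by 2.24 ± 0.51 (adjusted p = 0.0095) and *pygl-1* by -1.13 ± 0.28 (adjusted p = 0.018). The *tre-5* difference was not significant without the GEM day 5 library at 7.99 (1.95, adjusted p = 0.075). That of *pygl-1* lost its call without any of 4 of the 8 libraries, with adjusted p of 0.096 without the FEM day 5 library at 12.39, 0.083 without the FEM day 10 library at 11.21, 0.068 without the GEM day 5 library at 14.28 and 0.077 without the GEM day 10 library at 14.59. For the other members that fell in FEM only, such as *gob-1* (-0.39 ± 0.21, adjusted p = 0.35) and *tre-1* (-0.35 ± 0.19, adjusted p = 0.36), the difference between the strains did not pass.

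**Figure D5:**
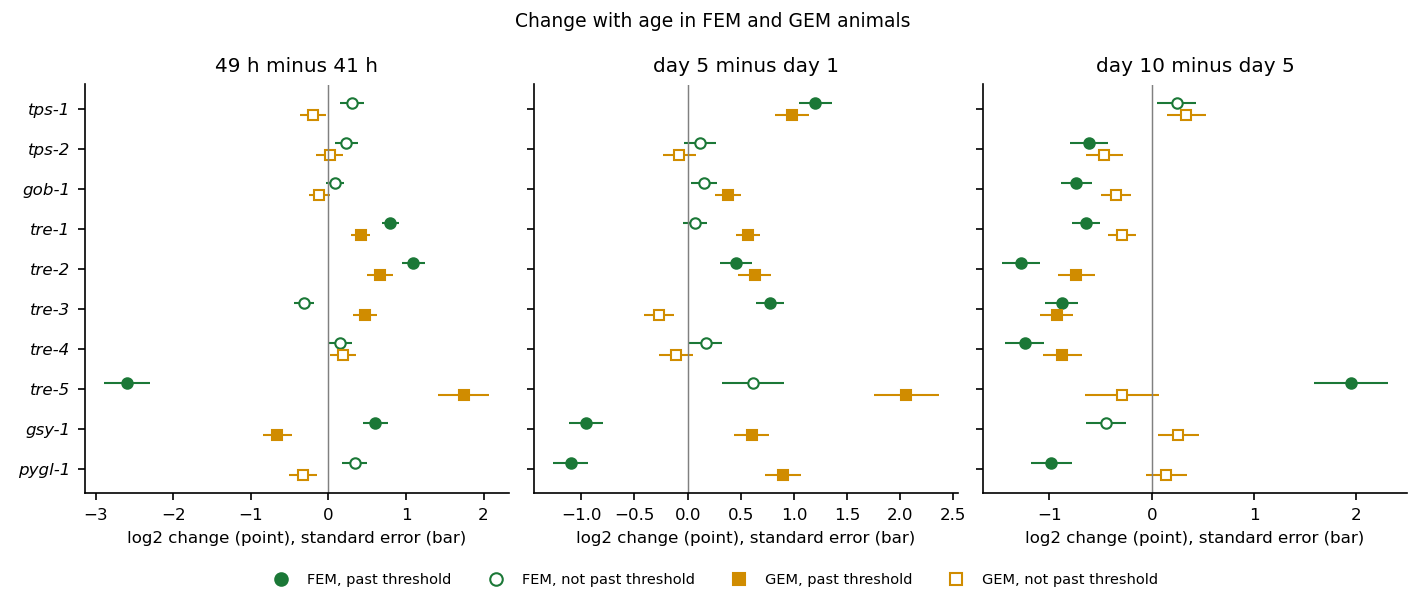
Change of the 10 members over 3 intervals of age, as log2 change (points) with standard errors (bars), filled where the adjusted p passed the threshold, FEM in green above GEM in orange. From day 5 to day 10 *tre-2* changed by -1.28 in FEM and -0.74 in GEM and *tre-5* by 1.95 in FEM and -0.29 in GEM, and from 41 to 49 h *tre-5* changed by -2.60 in FEM and 1.75 in GEM.

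A list of 25 genes around these enzymes was examined in the same fit. Over the 9 ages 4 were higher and 19 lower in FEM, with a median of -0.39, against 31.1% higher and 38.6% lower and a median of -0.08 over all genes. Under quantile normalization 4 were higher and 19 lower, with a median of -0.42. Of all genes 22.2% were then higher and 61.9% lower, with a median of -0.43. With centered libraries 1 was higher and 24 were lower, with a median of -0.998. Of all genes 16.6% were then higher and 73.6% lower, with a median of -0.69. All 8 genes that supply hexose phosphates and UDP-glucose were lower in FEM, among them *hxk-1* to *hxk-3*, which encode hexokinases, and D1005.2 (-0.83), a predicted UDP-glucose pyrophosphorylase. Of 7 genes that prime, branch, debranch or control glycogen, 5 were lower in FEM, with the largest differences for *gyg-2*, a glycogenin (-2.35 ± 0.13), T04A8.7, the branching enzyme (-1.14 ± 0.07), and C14B9.8, a phosphorylase kinase subunit (-0.67 ± 0.06). The other 2 were higher in FEM, with 0.81 ± 0.09 (0.20 with centered libraries) for *gsk-3*, whose mammalian counterpart phosphorylates glycogen synthase. Of 4 alpha-glucosidase genes 1 was higher and 2 were lower, with -0.81 ± 0.10 for *aagr-4*, and of 5 genes of gluconeogenesis and the glyoxylate shunt 4 were lower. The transporter gene *fgt-1* was higher. With centered libraries *gsk-3* alone stayed higher, and *fgt-1* and the other genes called higher here were then lower.

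From day 1 to day 5, 3 of the 25 rose and 9 fell in FEM, against 25.4% of all genes rising and 18.3% falling. In GEM 17 rose and 5 fell, against 52.9% rising and 20.5% falling. Under quantile normalization 5 rose and 12 fell in GEM, against 38.2% of all genes rising and 37.2% falling. With centered libraries 7 rose and 10 fell, against 41.6% rising and 33.6% falling. The largest changes in FEM were those of *aagr-4* (-4.16), *icl-1*, which encodes the glyoxylate shunt enzyme (1.56), and R05F9.6, a phosphoglucomutase (-1.09). *aagr-2* changed by 1.01, *gpi-1*, the glucose phosphate isomerase, by -1.0 and *hxk-2* by -0.99. In GEM *gyg-2* rose by 6.4 ± 0.35, with means of 12.98 on day 5, against 6.58 on day 1, and *hxk-1* by 3.24, Y50D7A.3, another phosphorylase kinase subunit, by 2.68 and T04A8.7 by 2.11. Under quantile normalization these last 3 increases were smaller, with 1.98 for *hxk-1*, 1.04 for Y50D7A.3 and 0.73 for T04A8.7. *aagr-4* and *gyg-1*, another glycogenin gene, fell in GEM (log2 changes -4.42 and -1.97, the second being -3.02 under quantile normalization). Over these ages the oocyte list rose in GEM as given above, and its part in these changes was not tested.

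From day 5 to day 10, 1 of the 25 genes rose and 9 fell in FEM, against 6.71% of all genes rising and 10.3% falling. In GEM 1 rose and 4 fell, against 3.53% rising and 4.61% falling. The lysosomal type alpha-glucosidase genes *aagr-1* and *aagr-2* fell in both strains, with log2 changes of -3.09 and -1.93 in FEM and of -2.57 and -1.62 in GEM. *gyg-1* was the gene that rose, by 1.23 ± 0.15 in FEM and by 0.61 ± 0.15 in GEM. In FEM, *fbp-1*, the fructose bisphosphatase of gluconeogenesis, fell (-1.16), as did R05F9.6 (-0.90) and Y43F4B.5, another phosphoglucomutase (-0.82). The R05F9.6 call was lost without the FEM day 5 library numbered 1 (-0.57, adjusted p = 0.22) or the FEM day 10 library numbered 1 (-0.48, adjusted p = 0.32). In GEM, *aagr-4* (-1.20) and *pyc-1* (-0.58) also fell. The GEM calls of *gyg-1* and *aagr-4* were each lost without any of 3 of the 4 libraries (adjusted p up to 0.22 and 0.26), and that of *pyc-1* without any of the 4 (adjusted p up to 0.36).

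Over the 18 group means, the genes most like each member were sought among all genes tested. They were *lgg-2* (r = 0.98), M60.7 (0.98) and *msrp-7* (0.97) for *tps-1*, *lips-5* (0.95) for *tps-2* and *slc-25A21* (0.92) for *gob-1*. For *tre-1* it was *pck-2* (0.96), which encodes a phosphoenolpyruvate carboxykinase, for *tre-2* *vrp-1* (0.92), for *tre-3* *spon-1* (0.92), and for *tre-4* *clec-186* (0.97) and *lys-8* (0.97). *tre-5* had the least similar partner, M28.8 (0.88). After each other, *gsy-1* and *pygl-1* shared H24K24.3 (0.94 and 0.97).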

How the data were processed

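RNA-sequencing libraries of whole worms were assigned to strain and age by their labels, and 0 columns of the table were left unmapped. The authors trimmed reads (Trim Galore 0.4.4 in the submitters' processing notes), mapped them to WBcel235 with HISAT2 2.1.0 as non-directional single-end reads, counted reads per gene with isoforms merged in SeqMonk and normalized counts with DESeq2. The authors deposited the natural log of the normalized count plus 1, to 2 decimals. The base of the logarithm was read from the values, of which 100% of the low ones per library were whole multiples of the value of 1 read within rounding. This step gave the depth of each library as reads assigned to genes, an estimate that carries the rounding of the deposited values. Values were divided by the natural log of 2, so changes are on the log2(normalized count + 1) scale, which understates those of low genes. Sums per kb used exon unions of Ensembl release 115.

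Genes were kept if their deposited values averaged 1 or more, and the 16925 that passed were fitted with limma 3.58.1 in R 4.3.3, with a mean for each of 18 groups and moderation with a trend, and 19 contrasts were each adjusted by the Benjamini-Hochberg method over all of them at a threshold of 0.05. Errors of changes are standard errors. Tests for counts were not used, because whole reads are not recoverable at higher levels. Python 3.11.15, numpy 2.4.6, pandas 2.3.3 and matplotlib 3.10.9 were used. The fit was tested on simulated data. Alternatives were a pseudocount of 8, no filter or a minimum mean of 3, quantile normalization or median-centered libraries, no trend, fits restricted to the groups compared, 41 h or 49 h in place of day 1, and omission of single libraries. Libraries of a group are numbered in the order of their records. Members and lists were chosen with earlier results of these data known. All members are named, of the pathway list the at most 6 genes past the threshold with the largest change per comparison (others were named after their values were seen), and for likeness the genes of highest r. Of 7 sperm markers 6 were matched by name. *pygl-1* was matched by its sequence name.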

Additional observations from a re-analysis of the deposited data

Results flagged for a closer look

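The change with age differed between the strains, by a test of the difference itself in limma, for the following members, with the FEM change minus the GEM change on the log2 scale. From 41 to 49 h these were *tre-5* (-4.34), *gsy-1* (1.26) and *tre-3* (-0.78). From day 1 to day 5 they were *pygl-1* (-2.0), *gsy-1* (-1.56), *tre-5* (-1.44), *tre-3* (1.04) and *tre-1* (-0.50). From day 5 to day 10 they were *tre-5* (2.24) and *pygl-1* (-1.13).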

How the results depend on the processing

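Of 98 called results for single genes, 97 kept their call with no filter, 98 with a mean of at least 3, 98 with a pseudocount of 8, 97 without a trend, 83 under quantile normalization (8 lost, 7 turned, and 2 others turned that were not called) and 83 with centered libraries (7 lost, 8 turned, and 2 others turned that were not called). In fits to only the groups compared, 66 of 85 kept it. With day 1 as 41 h only, 27 of 29 did, and with 49 h only 26 of 29, alternatives chosen after seeing the data. The cause of these changes was not tested. Reversed under quantile normalization were the GEM day 1 to day 5 changes of *tps-1* (-0.56), *gob-1* (-1.07), *tre-1* (-0.77), *tre-2* (-0.66) and *gsy-1* (-0.45), the strain differences in this change of *gob-1* (1.09), *tre-1* (0.70) and *tre-2* (1.04), and *gsy-1* between strains at 49 h (-0.12). With centered libraries these were, over the 9 ages, *tps-1* (-0.45), *gob-1* (-0.54) and *tre-2* (-0.25), in GEM from day 1 to day 5 *gob-1* (-0.33), *tre-1* (-0.14), *tre-2* (-0.082) and *gsy-1* (-0.11), the strain difference in this change of *tre-1* (0.087), and at 49 h *gsy-1* (-0.57) and *pygl-1* (-0.75). With 49 h as day 1 they were the FEM change of *tre-2* (-0.091) and the strain difference of *tre-5* (0.73). Some counts moved by more than a set ratio from the main fit. In fits to only the groups compared these were, for members, 41 to 49 h (7 in FEM, 0 in GEM), day 1 to day 5 in GEM (4) and day 5 to day 10 in GEM (0). For all genes they were day 5 to day 10 (1813 in FEM, 130 in GEM) and 41 to 49 h in GEM (114). Beside the 7 members in FEM, 8869 of the 16925 genes passed, and beside the 4 in GEM 11291 did. Under quantile normalization the counts that moved were 1 member from day 5 to day 10 in GEM (lower, against 4.06% of all genes), and 9 members with a strain difference from day 1 to day 5. Of these 9, 7 were more positive and 2 more negative in FEM, against 28.9% and 30% of all genes. Genes with a strain difference from day 5 to day 10 numbered 963 under quantile normalization and 1194 with a pseudocount of 8. With 49 h as day 1, 4453 genes changed to day 5 in FEM. Leaving out each library gave 1 to 5 members and 1545 to 3896 genes in GEM from 41 to 49 h, 4930 to 7146 genes in FEM from day 1 to day 5, 1524 to 2632 genes in FEM and 1 to 4 members and 585 to 1048 genes in GEM from day 5 to day 10, and strain differences in 3 to 5 members (41 to 49 h), 3 to 5 (day 1 to day 5), and 1 to 2 members and 237 to 739 genes (day 5 to day 10). Where that left a group with 1 library, it was assumed to vary like the others. No paired analysis was possible because the labels give no replicate number that links libraries of different groups. The titles hold library codes, some of them consecutive between strains at an age, but no source used here says that a code marks a shared culture or day, and they were not used for pairing. With 2 or 3 libraries per group, small changes of weakly expressed genes were not resolved.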
